A study of Homo sapiens with 6 samples.

Results

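Integrins and laminins are described here by 37 genes, of 16934 in the count table, whose symbols name an integrin alpha subunit (18 genes), an integrin beta subunit (8 genes) or a laminin chain (11 genes). RNA sequencing was done on A375, a human melanoma line long kept in culture, after CRISPR-Cas9 with the Alt-R system and either a non-targeting control sgRNA or an sgRNA against POLK, the gene of the error-prone DNA polymerase kappa. Each group held 3 libraries, all from cells grown in DMEM with fetal bovine serum, and both groups had been through the same kind of editing. The labels do not say whether the edited cells were a pool or a clone, nor whether the libraries within a group are from separate cultures. Hence n = 3 is a number of libraries and p-values measure only the spread between them, which may be technical. The study asks how oncogenic signalling controls this polymerase and what it adds to drug resistance, and the comparison here is of the adhesion receptors and their laminin ligands between the 2 groups.

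Laminins are trimers of an alpha, a beta and a gamma chain that assemble into the sheet of the basement membrane. Integrins are transmembrane receptors, each a pair of an alpha and a beta subunit, that bind matrix proteins outside the cell and link to actin inside it. The subunits encoded by ITGA3, ITGA6 and ITGA7 bind laminins when paired with that of ITGB1, and the ITGA6 product also pairs with that of ITGB4. Other pairs bind collagens, fibronectin or other ligands that carry an Arg-Gly-Asp sequence, or partners on other cells, and several integrins are used as markers of melanoma progression.

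Library totals ran from 42852645 to 56891905 counts, and expression is given as counts in each 1000000 of the scaled library size (CPM). POLK itself was between 22.4 and 24.03 CPM in the control libraries and between 17.2 and 19.2 CPM in the POLK sgRNA libraries, a log2 fold change of −0.36. Pairs of libraries within a group differed beyond counting noise (chi-square over its degrees of freedom 1.98 to 4.05). SOX10, a defining factor of the melanocyte lineage, was at 1060 and 1155 CPM in the control and POLK sgRNA groups, whereas the pigment gene markers PMEL, MLANA, TYR and DCT were all under 1 CPM on average in both groups. Of 9 melanocyte lineage markers tested, 6 rose and 1 fell (66.7% and 11.1%, where 32.8% and 31.6% of all genes did). SOX10 was among those that rose (edgeR adjusted p = 8.1e-06). S100A1 rose from 19.2 to 58.3 CPM, and TFAP2A fell from 14.8 to 11.1 CPM. All 19 counts of TYR and 64 of the 67 control counts of DCT lay in control library 1, so the fold changes, the ratios between subunits and the counts of genes called were also computed without that library. The summed level of 8 leukocyte markers was 17.9 to 18.2 CPM in the control group and 58.4 to 60.3 CPM with the POLK sgRNA, almost wholly from LYZ and CD68, while the defining leukocyte gene PTPRC had at most 3 counts in a library. Sums for endothelial markers were 3.57 to 4.46 and 6.12 to 6.62 CPM, for fibroblast markers 8.95 to 11.3 and 12.7 to 14.1 CPM, and for epithelial markers 17.5 to 18.5 and 34.2 to 35.0 CPM. Single markers of a list went opposite ways. Of 3 leukocyte markers tested, LYZ and CD68 rose and CD14 fell, the last from 0.354 to 0.0917 CPM (66.7% and 33.3%). Of 6 endothelial markers tested 4 rose and 2 fell (66.7% and 33.3%), and of 5 fibroblast markers 2 rose and 2 fell (40% each). The part of these markers in the results below was not tested.

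Of the 37 genes, 29 passed the filter on low counts, and of these 9 rose and 11 fell with the POLK sgRNA (quasi-likelihood test of edgeR, at a Benjamini-Hochberg adjusted p under 0.05, the adjustment running over every gene tested). That is 69.0% of those tested, against 64.3% of all 13930 genes tested, so the share called was near the background. The 11 that fell were 37.9% of those tested, where 31.6% of all genes fell, and the 9 that rose were 31.0%, where 32.8% of all genes rose. The median log2 fold change was 0.03, against 0.01 over all genes. The libraries of the 2 groups did not overlap for 20 of the 29, against 67.7% of all genes tested. Changes of at least 0.5 on the log2 scale in either direction were seen for 7 of the 29, or 24.1%, against 19.5% of all genes. The direction differed between classes of subunit, each of few genes. Of 6 beta subunits tested, 5 fell (83.3%) and none rose, of 14 alpha subunits 5 rose and 5 fell (35.7% each). Of 9 laminin chains 4 rose and 1 fell (44.4% and 11.1%). The beta subunits that fell included ITGB1 and ITGB8, at log2 fold changes of −0.08 and −0.12. ITGB2 lost its call under some alternatives, and ITGB3 passed as higher under others.

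**Figure D1:**
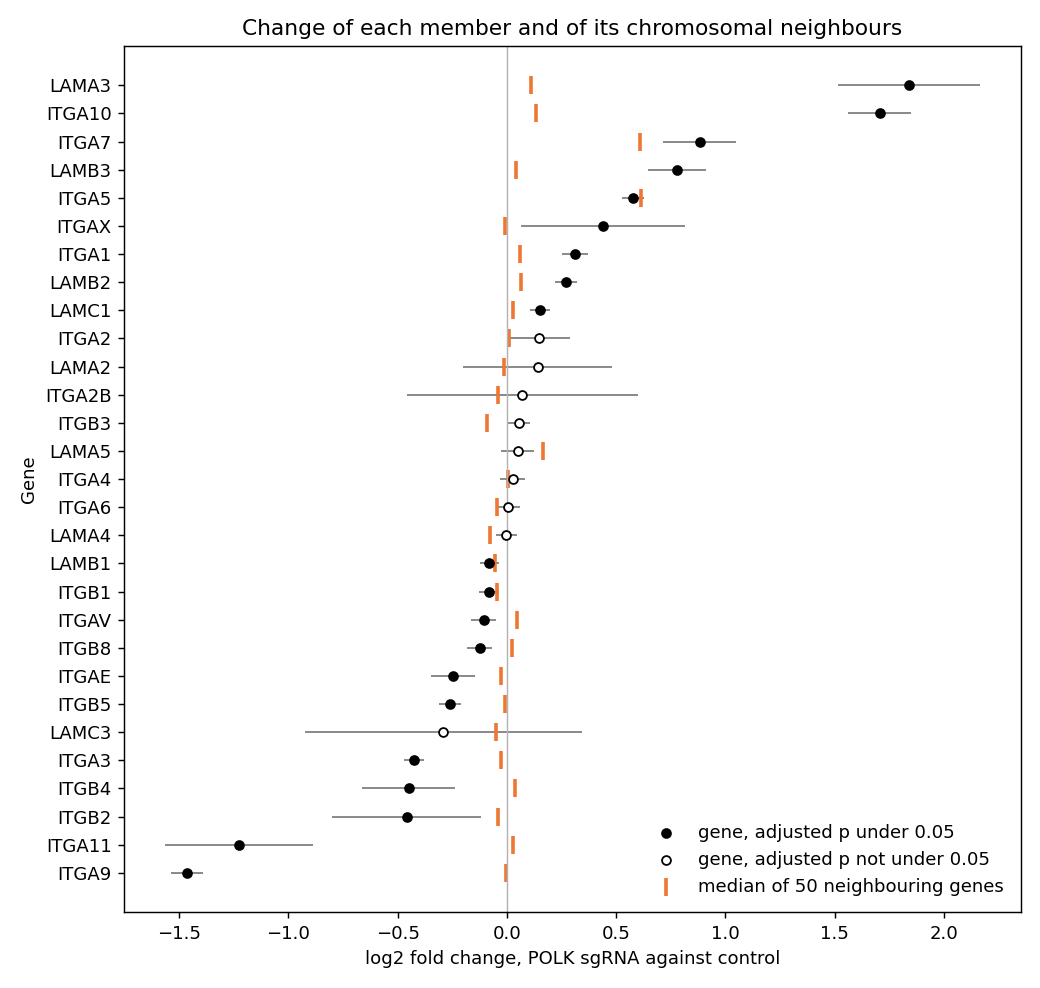
Log2 fold change (POLK sgRNA against control, horizontal axis) of the 29 integrin and laminin genes tested (vertical axis), with 95% intervals as bars. Filled circles passed the test and open circles did not, and orange ticks give the median of the 50 neighbouring tested genes, which is near 0 for most members and near 0.6 for ITGA5 and ITGA7.

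Among the laminin-binding receptor subunits, ITGA3 fell and ITGA6 did not change detectably, so the balance between the 2 main laminin-binding alpha subunits differed between the groups. ITGA3 (ENSG00000005884, chromosome 17, 50055968 to 50090481 on the plus strand, GRCh38) encodes a receptor subunit that binds laminins with alpha3 or alpha5 chains. It was at 546, 538 and 557 CPM in control libraries 1, 2 and 3 and at 399, 407 and 415 CPM in POLK sgRNA libraries 1, 2 and 3. Every control library was higher than every POLK sgRNA library, and the log2 fold change was −0.43 (SE 0.02, edgeR adjusted p = 9.6e-18). ITGA6 (ENSG00000091409, chromosome 2, 172427354 to 172506282, plus strand), whose product binds most laminins, was at 400.3, 388 and 387 CPM in control and 408, 395 and 376 CPM in POLK sgRNA libraries. The groups overlapped, and its log2 fold change of 0.01 had a 95% interval of −0.05 to 0.06 (edgeR adjusted p = 0.84). The ratio of ITGA6 to ITGA3, per exonic length, was 1.1004, 1.0812 and 1.0426 in control libraries and 1.5336, 1.4575 and 1.3598 in POLK sgRNA libraries. Each POLK sgRNA library exceeded each control library, a 1.35-fold difference (two-sided exact permutation test, p = 0.1, the smallest that 3 libraries against 3 can give).

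ITGA7, whose product is the laminin receptor subunit best known from muscle, rose from a low level. Its values were 7.49, 7.47 and 8.87 CPM in control and 13.1, 14.8 and 16.2 CPM in POLK sgRNA libraries, and the groups did not overlap. The log2 fold change was 0.88 (SE 0.08, edgeR adjusted p = 4.5e-09). ITGA7 lies on chromosome 12 (55684568 to 55716043, minus strand), where the 50 tested genes around it had a median log2 fold change of 0.61 and 48 of them were called higher.

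The beta subunits that serve laminin receptors were slightly or moderately lower. ITGB1, the shared partner of all laminin-binding alpha subunits, was at 386, 390.0 and 399 CPM in control and 375.3, 368 and 367 CPM in POLK sgRNA libraries. The difference was small but the groups did not overlap, with a log2 fold change of −0.08 (SE 0.02, edgeR adjusted p = 0.0015). ITGB4, the hemidesmosome subunit that pairs only with the ITGA6 product, was at 3.66, 3.61 and 3.98 CPM in control and 2.94, 2.78 and 2.49 CPM in POLK sgRNA libraries. It fell by 0.45 on the log2 scale (SE 0.10, adjusted p = 0.00035) from a level of about 0.555 CPM per kb of exon, under a hundredth of that of ITGB1.

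**Figure D2:**
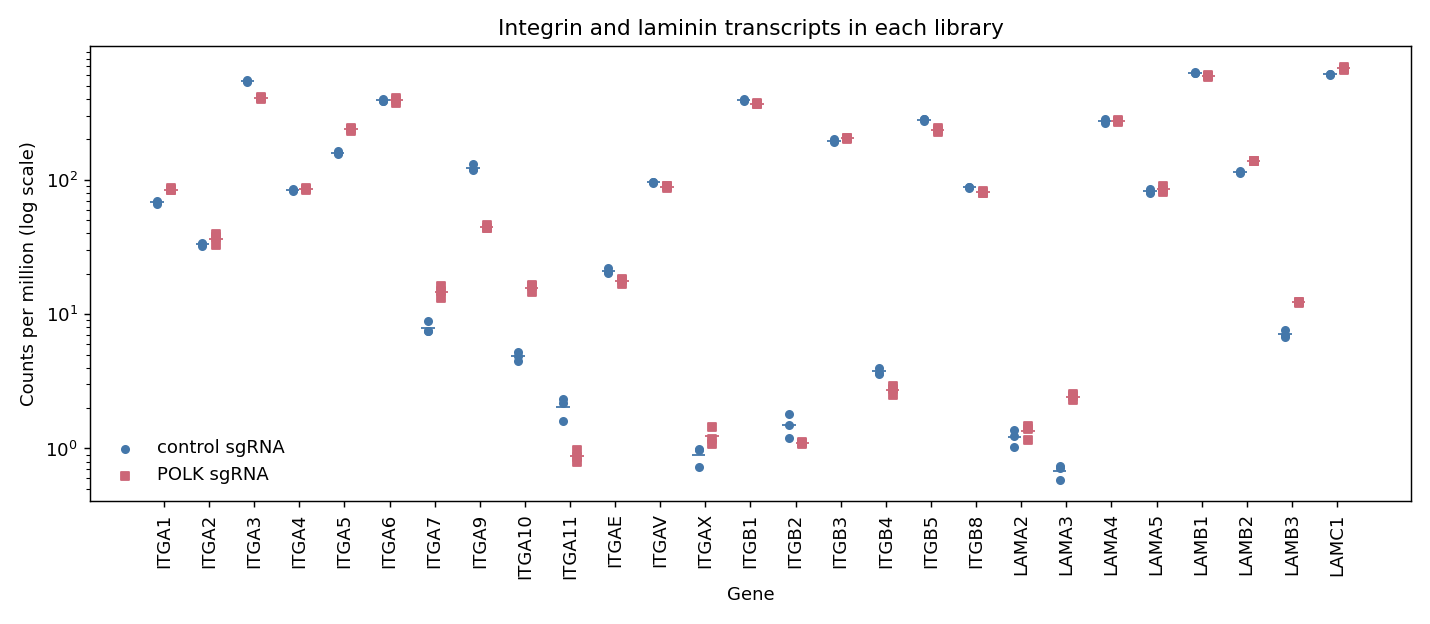
CPM (vertical axis, log scale) of the 27 integrin and laminin genes whose mean reached 1 CPM in either group (horizontal axis). Each point is a library (circles control, squares POLK sgRNA) and horizontal ticks are group means, and the groups are apart for ITGA3, ITGA5, ITGA9, ITGA10 and LAMA3 and overlap for ITGA6 and LAMA4.

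The abundant laminin chains were LAMA4, LAMA5, LAMB1, LAMB2 and LAMC1, and the alpha chains among them did not pass the test. LAMA4, the alpha chain of vessel and mesenchymal basement membranes, was at 266, 275 and 282 CPM in control and 272, 280 and 271 CPM in POLK sgRNA libraries. Its log2 fold change was −0.00 with a 95% interval of −0.05 to 0.05 (edgeR adjusted p = 0.94). LAMA5, the widespread alpha chain of mature basement membranes, was at 85.3, 79.9 and 81.2 CPM in control and 84.1, 90.2 and 80.5 CPM in POLK sgRNA libraries. The groups overlapped (log2 fold change 0.05, 95% interval −0.02 to 0.12, adjusted p = 0.23), and only on leaving out POLK sgRNA library 3, the lowest of its group, did LAMA5 pass (adjusted p = 0.021).

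Among beta chains, LAMB2 rose while the more abundant LAMB1 fell slightly. LAMB2 (chromosome 3, 49121114 to 49133118, minus strand), the beta chain of synaptic and kidney filter basement membranes, was at 115, 113 and 116 CPM in control and 138, 138 and 139 CPM in POLK sgRNA libraries. LAMB1 (chromosome 7, 107923799 to 108003255, minus strand), the common beta chain, was at 627, 627 and 632 CPM in control and 591, 608 and 585 CPM in POLK sgRNA libraries. For both genes the groups did not overlap, with log2 fold changes of 0.27 (SE 0.02, adjusted p = 1.4e-11) and −0.08 (SE 0.02, adjusted p = 0.0017) by edgeR. LAMB2 made up 17.5% ± 0.13 (SD, n = 3) of the summed beta chain level per exonic length in control and 21.0% ± 0.37 in POLK sgRNA libraries. LAMC1, the gamma chain shared by most laminins, was at 609, 604 and 615 CPM in control and 670.1, 696 and 663 CPM in POLK sgRNA libraries. It rose by 0.15 on the log2 scale (SE 0.02, adjusted p = 4.6e-07). The summed level of the alpha chains was 29.6 ± 0.56 and 29.9 ± 0.76 CPM per kb (SD, n = 3), that of the beta chains 95.4 ± 0.62 and 95.8 ± 1.35, and that of LAMC1 with LAMC3 72.5 ± 0.62 and 80.5 ± 2.11. Alpha chains had the lowest of these 3 sums per length in both groups, and the sum of LAMC1 with LAMC3 was the one whose libraries did not overlap between the groups.

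LAMA3 and LAMB3, whose products are chains of the epithelial laminin that anchors skin to its basement membrane, both rose from low levels. LAMA3 was at 0.747, 0.714 and 0.583 CPM in control and 2.56, 2.29 and 2.47 CPM in POLK sgRNA libraries. It rose most of the 29 genes tested, with a log2 fold change of 1.84 (SE 0.16, edgeR adjusted p = 3.7e-12), and rests on 99 counts in the control group and 374 with the POLK sgRNA. LAMB3 was at 6.75, 6.96 and 7.68 CPM in control and 12.1, 12.2 and 12.4 CPM in POLK sgRNA libraries, and it rose by 0.78 on the log2 scale (SE 0.06, adjusted p = 1.6e-12). For both genes the groups did not overlap. At most 2.79% of the beta chain level and 0.586% of the alpha chain level in a library came from LAMB3 and LAMA3, so these chains stayed minor. Of 8 epithelial markers 6 were tested, and KRT14 and CLDN4 rose, from 3.93 to 7.42 and from 12.3 to 25.7 CPM. KRT5, KRT19, EPCAM and ESRP1 did not pass, with log2 fold changes of −1.001, −0.32, 0.60 and 0.56. The defining genes EPCAM and CDH1 had at most 20 and 5 counts in a library.

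The promoters of LAMA3 and LAMB3 are shown because these genes rose together and because theirs were the only ones, among the 26 members listed in the RefSeq promoter table, with the 7-letter motif TGANTCA in the 250 bases before a start. This is the sequence that AP-1 factors recognise, and it reads the same on both strands. The motif stands in 6.57% of all 35116 such windows, and in 2 of the 33 listed for members, which is close to that share. The windows are written 5′ to 3′ on the gene's strand, from build GRCh38.p14, with the motif in capitals. The first is chr18:23872770-23873019 (plus strand), an internal start of LAMA3, with 2 matches, and the second is chr1:209651375-209651624 (minus strand), the most downstream of 3 starts listed for LAMB3, with 1 match. The other starts listed for LAMB3 hold no match. The 11 members without a listed promoter include ITGA3, ITGA7 and ITGA9, and the motif was chosen after values were seen. A match is a description of the letters and not a measured site.
LAMA3: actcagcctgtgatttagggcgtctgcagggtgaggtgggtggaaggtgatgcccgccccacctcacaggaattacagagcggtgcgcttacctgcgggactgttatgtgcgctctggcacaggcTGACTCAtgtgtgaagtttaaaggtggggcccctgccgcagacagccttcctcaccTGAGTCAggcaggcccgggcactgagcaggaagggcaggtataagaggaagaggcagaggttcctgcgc
LAMB3: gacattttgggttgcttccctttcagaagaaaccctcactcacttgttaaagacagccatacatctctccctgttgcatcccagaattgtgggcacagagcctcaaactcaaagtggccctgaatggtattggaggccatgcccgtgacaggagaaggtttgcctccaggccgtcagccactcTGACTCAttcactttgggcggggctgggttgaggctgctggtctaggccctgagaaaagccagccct
ITGA10: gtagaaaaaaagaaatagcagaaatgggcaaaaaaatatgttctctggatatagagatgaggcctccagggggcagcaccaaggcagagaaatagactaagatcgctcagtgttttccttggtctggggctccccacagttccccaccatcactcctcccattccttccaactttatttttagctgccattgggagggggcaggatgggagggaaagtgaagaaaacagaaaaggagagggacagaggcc
The third window, chr1:145910051-145910300 (minus strand), is that of ITGA10, the integrin that rose most of those tested, and it holds no match. It has 1 CpG dinucleotide, where the median over all such windows is 11.

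Levels between genes were compared only per kilobase of exon. In control cells the highest levels were those of LAMB1 (77.3 ± 0.36 CPM per kb, SD, n = 3), LAMC1 (72.5 ± 0.62), ITGB1 (65.2 ± 1.11), ITGA6 (59.9 ± 1.17) and ITGA3 (55.8 ± 0.96). In POLK sgRNA cells the order began with LAMC1 (80.5 ± 2.11 CPM per kb), LAMB1 (73.1 ± 1.44), ITGB1 (61.5 ± 0.78) and ITGA6 (60.2 ± 2.48), of which the last 2 did not differ beyond their spread. LAMC1 was below LAMB1 in every control library and above it in every POLK sgRNA library, with ratios of 0.933 to 0.942 and 1.096 to 1.109. With the longest transcript in place of all exons, these ratios became 0.704 to 0.711 and 0.827 to 0.837, and ITGA6 stood below ITGA3 in every library, so LAMC1 was then below LAMB1 in all 6 libraries. Which gene of a pair is the higher one thus depends on the length used, and only the fold between groups of such a ratio does not.

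**Figure D3:**
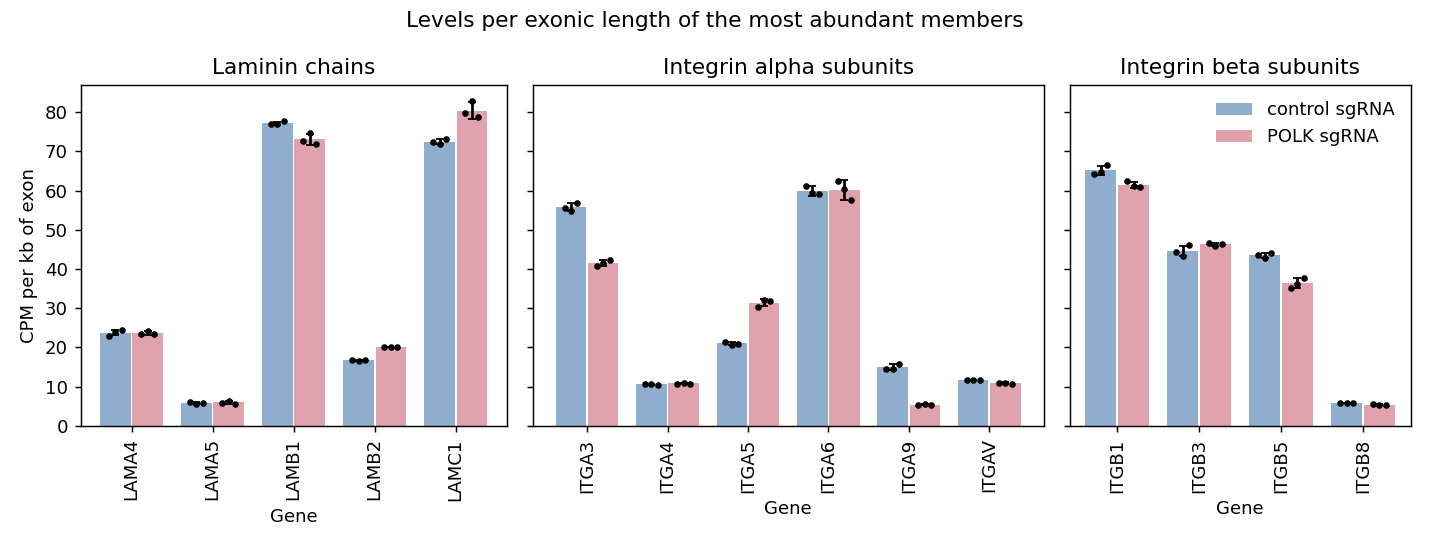
Level per exonic length (CPM per kb, vertical axis from 0) of the 15 most abundant members (horizontal axis), as group means with SD as error bars and each library as a black point. LAMB1, LAMC1, ITGB1 and ITGA6 are high in both groups, ITGA3 is lower and ITGA5 higher with the POLK sgRNA, and ITGA9 falls from 14.9 to 5.40 CPM per kb.

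Of ITGA3, ITGA6 and ITGA7, counted here as the laminin-binding alpha subunits, only ITGA3 fell, and the sum of the 3 was lower with the POLK sgRNA. ITGA1, counted here with the collagen-binding subunits though its product also binds laminins, is not in this sum and rose from 3.67 to 4.56 CPM per kb. The summed level of ITGA3, ITGA6 and ITGA7 was 118, 115 and 117 CPM per kb in control and 105, 104 and 102 CPM per kb in POLK sgRNA libraries. The groups did not overlap. ITGA3 alone went from 55.8 to 41.5 CPM per kb, more than the whole difference, while ITGA6 was at 59.9 and 60.2 and ITGA7 rose from 1.247 to 2.305 CPM per kb. The 12 alpha subunits that can pair with ITGB1 summed to 184 ± 1.93 and 174 ± 1.96 CPM per kb (SD, n = 3), above the level of ITGB1 itself in all 6 libraries. These sums are over chosen members and carry no test, and transcript levels do not measure how many receptor pairs reach the surface.

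Of the 4 collagen-binding alpha subunits 2 rose, 1 fell and 1 did not pass. The 75% called stand beside 64.3% of all genes tested, and 4 genes are too few to read a pattern from. ITGA10, first described in cartilage, was at 5.23, 4.45 and 4.85 CPM in control and 14.6, 16.4 and 16.3 CPM in POLK sgRNA libraries. The groups were far apart, with a log2 fold change of 1.71 (SE 0.07, edgeR adjusted p = 1.4e-20), the second largest rise among the genes tested here. ITGA1, a receptor subunit for basement membrane collagen and laminins, was at 66.5, 68.2 and 69.9 CPM in control and 83.4, 84.3 and 86.3 CPM in POLK sgRNA libraries, and it rose by 0.31 (SE 0.03, adjusted p = 2.8e-11). ITGA11, a fibroblast receptor subunit for fibrillar collagen, went the other way, from 1.61, 2.18 and 2.35 CPM to 0.980, 0.791 and 0.857 CPM, and fell by 1.22 on the log2 scale (SE 0.17, adjusted p = 9.1e-08). ITGA2, whose product also binds collagen, was at 33.3, 33.7 and 32.2 CPM in control and 39.8, 37.2 and 32.5 CPM in POLK sgRNA libraries. It overlapped through POLK sgRNA library 3 and did not pass (log2 fold change 0.15, adjusted p = 0.071), but it passed without that library (0.22, adjusted p = 7.3e-06). Together these 4 genes gave 8.81 ± 0.04 CPM per kb in control and 11.7 ± 0.29 in POLK sgRNA libraries, and the ratio of ITGA10 to ITGA1 went from 0.192 to 0.231 to 0.514 to 0.570 (two-sided exact permutation test, p = 0.1).

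Among the receptor subunits for Arg-Gly-Asp ligands, ITGA5 rose, while ITGAV and its partners ITGB5 and ITGB8 fell by less on the log2 scale. ITGA5 (ENSG00000161638, chromosome 12, 54395261 to 54419460, minus strand), the fibronectin receptor subunit, was at 163, 157 and 159 CPM in control and 229.7, 243 and 240.4 CPM in POLK sgRNA libraries. The groups were well apart, with a log2 fold change of 0.58 (SE 0.03, edgeR adjusted p = 4.7e-20). Its 50 tested neighbours had a median log2 fold change of 0.61, 48 of them were called higher and none lower, so ITGA5 moved by as much as the genes around it. ITGAV, the shared alpha subunit of vitronectin receptors, was at 96.7, 95.6 and 95.1 CPM in control and 89.5, 90.4 and 86.9 CPM in POLK sgRNA libraries, a fall of 0.11 (SE 0.03, adjusted p = 0.00098). The ratio of ITGA5 to ITGAV per length went from between 1.78 and 1.82 to between 2.78 and 3.00 (two-sided exact permutation test, p = 0.1).

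The beta partners of ITGAV differed among themselves. ITGB5 was at 281, 276 and 284 CPM in control and 226, 234 and 243 CPM in POLK sgRNA libraries, and fell by 0.26 on the log2 scale (SE 0.02, edgeR adjusted p = 4.6e-11). ITGB8, whose pair with ITGAV frees active TGF-beta, was at 89.0, 89.1 and 86.6 CPM in control and 82.3, 80.3 and 80.1 CPM in POLK sgRNA libraries, and fell by 0.12 (SE 0.03, adjusted p = 0.00022). ITGB3, often used as a marker of invasive melanoma, was at 195, 191 and 202 CPM in control and 205, 201 and 204 CPM in POLK sgRNA libraries. ITGB3 overlapped between groups through control library 3 and did not pass (log2 fold change 0.05, adjusted p = 0.055), while it passed without that library (0.07, adjusted p = 0.016). Just over 51% of its exonic bases, 2266 of 4394, are shared with an overlapping gene model on the same strand, so its level is uncertain. ITGB5 was within 1 SD of ITGB3 per length in control cells (43.5 ± 0.64 and 44.6 ± 1.34 CPM per kb, SD, n = 3) and below it in POLK sgRNA cells (36.4 ± 1.30 and 46.3 ± 0.45). With the longest transcript ITGB5 was instead above ITGB3 in both groups, at 64.2 against 49.1 and 53.6 against 50.9 CPM per kb.

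ITGA9 fell furthest of the 29 genes tested. It encodes a receptor subunit for tenascin C, osteopontin and VCAM1 (chromosome 3, 37452115 to 37823514, plus strand). It was at 119, 120.0 and 131 CPM in control and 44.1, 46.5 and 43.6 CPM in POLK sgRNA libraries. The control libraries were all more than 2 times as high as any POLK sgRNA library, and the log2 fold change was −1.46 (SE 0.04, edgeR adjusted p = 8.5e-22). Its neighbours had a median of −0.01, with 16 of 50 higher and 17 lower. An antisense gene covers 6.46% of its exonic bases, and its reads cannot be told apart without strand. ITGA4, a close relative that also pairs with ITGB1 and binds VCAM1 and fibronectin, was at 84.2, 84.8 and 82.6 CPM in control and 84.7, 87.0 and 84.7 CPM in POLK sgRNA libraries. ITGA4 did not pass (log2 fold change 0.03, 95% interval −0.03 to 0.08), and the ratio of ITGA9 to ITGA4 per length went from between 1.35 and 1.51 to between 0.491 and 0.510. By this length ITGA9 was above ITGA4 in every control library and below it in every POLK sgRNA library (two-sided exact permutation test of the ratio, p = 0.1). With the longest transcript the ratios were 0.751 to 0.842 and 0.273 to 0.284, so that ITGA9 was below ITGA4 in all 6 libraries.

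The ratios between subunits numbered 8, and 7 of them reached p = 0.1 in the exact test (0.11 after Benjamini-Hochberg adjustment over the 8). The exception was LAMA5 to LAMA4, at 0.233 to 0.260 in control libraries and 0.241 to 0.261 in those with the POLK sgRNA (exact p = 0.5). No design of 3 libraries against 3 can reach 0.05 in this test. The pairs were chosen after the values were seen, and each of the 7 holds a gene already called. Their separation was thus largely set by that choice. The p-values of ratios given here and above are descriptions and add no support to the calls.

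**Figure D4:**
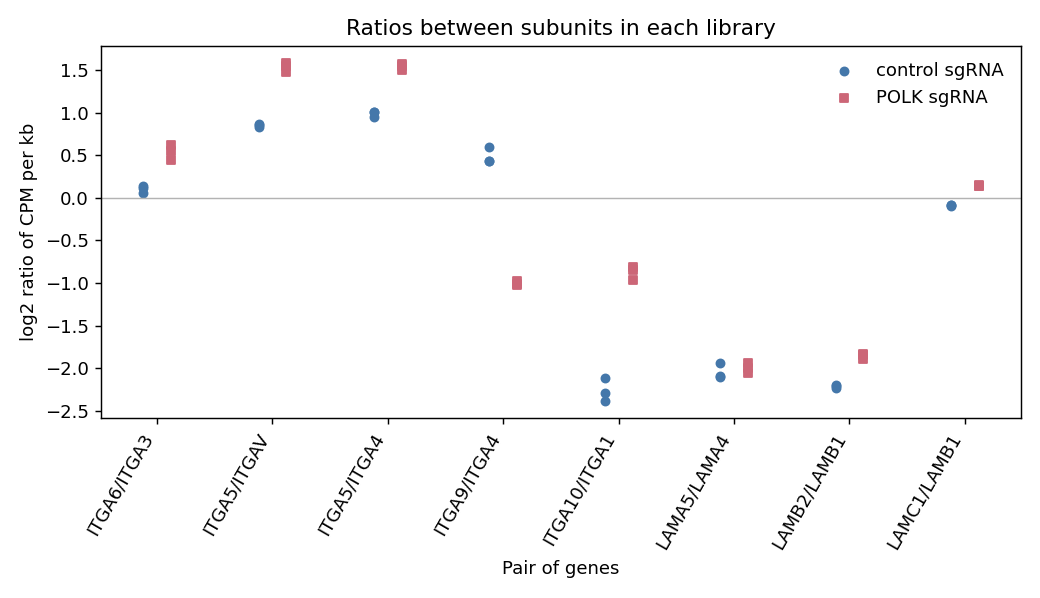
Log2 ratio of CPM per kb (vertical axis) for 8 pairs of genes (horizontal axis), each point a library (circles control, squares POLK sgRNA). The groups separate in 7 pairs and overlap for LAMA5 to LAMA4.

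Apart from ITGA4, given above, integrin subunits typical of leukocytes were at low levels. ITGAE, whose product pairs with that of ITGB7 and binds E-cadherin, was the exception, at 20.2, 21.9 and 20.7 CPM in control and 18.0, 18.3 and 16.7 CPM in POLK sgRNA libraries. It fell by 0.25 on the log2 scale (SE 0.05, edgeR adjusted p = 4.5e-05), and 6.41% of its exonic bases overlap HASPIN on the other strand. ITGB2 and ITGAX lay between 0.720 and 1.81 CPM in every library and passed narrowly, ITGB2 lower (−0.46, adjusted p = 0.017) and ITGAX higher (0.44, adjusted p = 0.036). ITGB2 lost its call without control library 3 (adjusted p = 0.15) and with DESeq2 (0.069), and ITGAX without control library 1 (0.16), without POLK sgRNA library 2 (0.18) and with DESeq2 (0.12). LAMA2, the muscle laminin chain, was at 1.03 to 1.37 CPM with the control and 1.16 to 1.47 CPM with the POLK sgRNA and did not pass. The platelet subunit ITGA2B and LAMC3, at 0.463 and 0.333 CPM in control and 0.482 and 0.276 CPM with the POLK sgRNA, did not pass either.

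The 8 members that did not pass the filter were ITGA8, ITGAD, ITGAL, ITGAM, ITGB6, ITGB7, LAMA1 and LAMB4, with 0 to 17 counts in a library. ITGA8 had 31 counts in the control group and 6 with the POLK sgRNA, a ratio of 0.184 (95% counting interval 0.063 to 0.448). LAMA1 had 9 and 28 counts, a ratio of 2.96 (1.36 to 7.13), of which 17 lay in POLK sgRNA library 1. ITGB7 had 5 and 29 counts, a ratio of 5.52 (2.11 to 18.3), and 42.1% of its exonic bases overlap ZNF740 on the other strand. ITGB7 also lies on chromosome 12, among neighbours with a median log2 fold change of 0.54. ITGAL had 0 control counts and 3 with the POLK sgRNA, and both lie at or under the floor of 3 counts over a group. ITGAM had 4 and 4, ITGAD 22 and 23, ITGB6 8 and 5 and LAMB4 6 and 10 counts. These intervals cover counting error only.

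Around the other members with large changes the neighbouring genes had medians nearer 0. The 50 genes around ITGA10, LAMA3, LAMB3, ITGA11 and ITGA3 had median log2 fold changes of 0.13, 0.11, 0.04, 0.03 and −0.03. Around ITGA10, 25 of the 50 were called higher and 10 lower, and around LAMA3 26 and 9, more of them higher than the 32.8% of all genes. Around LAMA5 the median was 0.16, with 31 genes higher and 6 lower, and LAMA5 itself was at 0.05.

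**Figure D5:**
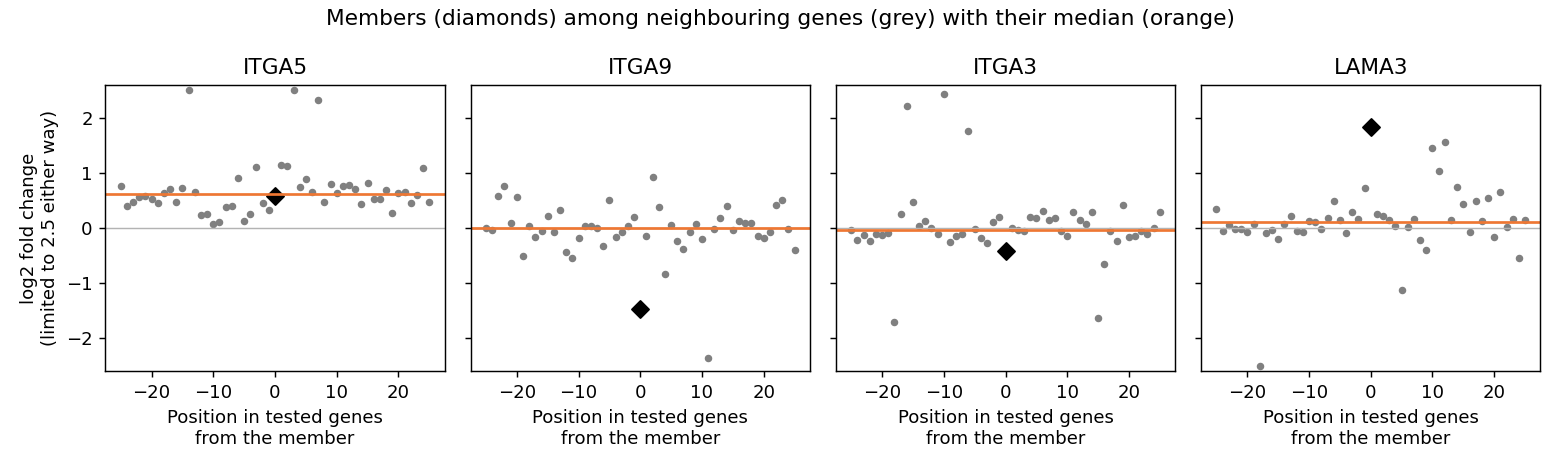
Log2 fold change (vertical axis, limited to 2.5 either way) of up to 25 tested genes on each side of ITGA5, ITGA9, ITGA3 and LAMA3, by position in genes (horizontal axis). Diamonds are the members, grey points their neighbours and orange lines the neighbours' medians, and ITGA5 lies on its line (0.58 against 0.61) while ITGA9 lies far below its own (−1.46 against −0.01).

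Beside the members, 120 further genes of adhesion from 7 lists were in the table, and of the 115 tested 40 rose and 50 fell. That is 78.3% called, against 64.3% of all genes tested. The 34.8% that rose and the 43.5% that fell stand beside 32.8% and 31.6% of all genes, the shares to set beside each list below. Among 19 activators and inactivators of integrins 9 rose and 6 fell (47.4% and 31.6%), and the median log2 fold change was 0.06. FERMT1, a kindlin that binds integrin beta tails, rose from 26.1 ± 0.90 to 44.5 ± 0.10 CPM (SD, n = 3), and its 50 neighbours on chromosome 20 had a median of 0.57. KANK1, an adaptor of talin, rose from 66.0 ± 0.21 to 94.9 ± 1.55 CPM, and TNS1, a tensin that binds beta tails, fell from 2.68 ± 0.21 to 0.499 ± 0.063 CPM. Of 30 focal adhesion adaptors and kinases 6 rose and 16 fell (20% and 53.3%, where 32.8% and 31.6% of all genes did, median −0.08). The actin crosslinker ACTN1 fell from 534 ± 3.14 to 400.4 ± 1.58 CPM, the scaffold BCAR1 from 101 ± 4.32 to 66.9 ± 0.62 CPM, and CSRP1, a LIM protein of actin bundles, rose from 115 ± 4.38 to 235 ± 4.72 CPM. The neighbours of BCAR1 had a median of −0.35.

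Of 10 laminin receptors that are not integrins or act beside them, 4 rose and 6 fell (40% and 60%, median −0.11). The syndecan gene SDC2 fell from 61.6 ± 2.42 to 30.8 ± 0.18 CPM, its relative SDC3 from 446 ± 8.74 to 308 ± 3.11 CPM, and SGCB, of the dystroglycan-linked sarcoglycan complex, from 75.7 ± 1.13 to 58.1 ± 1.84 CPM. Of 14 other basement membrane genes tested, 8 rose and 5 fell (57.1% and 35.7%, median 0.14). NID1, which encodes nidogen, the linker between laminin gamma chains and collagen IV, rose from 179 ± 5.35 to 428 ± 11.5 CPM. The collagen IV genes COL4A1 and COL4A2 fell from 592 ± 11.9 to 386 ± 10.1 CPM and from 1279 ± 25.02 to 918 ± 16.5 CPM. Other collagen IV genes of this list went both ways. The 50 neighbours of COL4A1 and COL4A2 had medians of −0.11 and −0.09, with 26 and 25 called lower and 9 higher around each.

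Of 20 other integrin ligands tested, 3 rose and 13 fell (15% and 65%, where 32.8% and 31.6% of all genes did, median −0.28). The largest fall was that of FN1, which encodes fibronectin, the ligand of the ITGA5 receptor, from 176 ± 11.6 to 39.9 ± 2.20 CPM. FN1 is not among the 3 with the smallest p and is named after its values were seen. COL6A3, a collagen VI chain gene, rose from 1.15 ± 0.32 to 7.68 ± 0.50 CPM and the galectin gene LGALS3 from 33.5 ± 0.43 to 59.6 ± 0.55 CPM, and the adhesion molecule gene L1CAM fell from 95.4 ± 2.69 to 50.2 ± 2.53 CPM. Of 8 integrin-associated membrane proteins 5 rose and 1 fell (62.5% and 12.5%, median 0.10). The tetraspanin CD63 rose from 377 ± 13.1 to 521 ± 8.21 CPM and SLC3A2, which binds beta subunits, from 221 ± 4.10 to 257 ± 6.56 CPM. CD82, a tetraspanin known as a suppressor of metastasis, rose from 4.14 ± 0.22 to 6.40 ± 0.71 CPM. Of 14 integrin trafficking genes 5 rose and 3 fell (35.7% and 21.4%, median 0.05). The endosomal GTPase RAB21 rose from 55.5 ± 1.04 to 74.7 ± 1.504 CPM and HAX1 from 132 ± 2.24 to 149 ± 1.24 CPM, and the retromer subunit VPS35 fell from 179 ± 2.24 to 158 ± 2.65 CPM. CD63 and RAB21 lie on chromosome 12 among neighbours with medians of 0.62 and 0.63. All genes named in these lists had an edgeR adjusted p of 2.6e-07 or less and kept their call under every alternative run.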

How the data were processed

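The submitters' processing notes name STAR, Trimmomatic, FastQC, DESeq2 and the build GRCh38. Libraries were unstranded (TruSeq RNA V2), per the labels' protocols. No counting tool, annotation or version is stated in the sources used here. Deposited by the authors were raw counts per gene, 1 column per library. Groups came from the sgRNA in the labels and columns were matched by name.

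Computation used R 4.3.3 and edgeR 4.0.16: filterByExpr (minimum count 10, total 15) kept 13930 of 16934 genes, libraries were scaled by TMM, and groups were compared with the quasi-likelihood F test (robust, no covariates, Benjamini-Hochberg over all genes, threshold 0.05). Standard errors were derived from the F statistic. The fit was tested on simulated data. Positions and exonic lengths (union of exons) came from GENCODE 29 on the same build. Neighbours are the 25 tested genes on each side.

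Same-numbered libraries did not deviate together (correlations of −0.04 to −0.01), so the main fit did not pair them. This cannot tell whether same-numbered libraries were grown or prepared together. One gene that fits the symbol rule is not reported here. Members, lists and alternatives were chosen with earlier results of these data known. The ratios between subunits, their leave-one-out values and the motif were chosen after values were seen. In each list of other adhesion genes the 3 with the smallest p are named. Alternatives were the size factors of DESeq2 1.42.0, library size alone, no filter, a mean CPM of 1, the replicate block, DESeq2, limma-voom (3.58.1), each library left out, the longest transcript, and 10 or 50 neighbours.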

Additional observations from a re-analysis of the deposited data

How the results depend on the processing

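The counts of genes called stayed within 1.5 times under every alternative run, over all genes (8080 to 9229 against 8962), over the members (19 to 25 against 20) and over the other adhesion genes (79 to 92 against 90), and with 1 library left out they were 8306 to 8682, 19 to 23 and 79 to 91. The 25 members were called with no filter, where 37 were tested in place of 29. That count includes members that the main fit did not test. With 1 library left out, 29 or 30 members were tested. With the replicate number as a block, 8773 genes and 21 members were called, ITGA2 being the one gained (adjusted p = 0.0074). The tally of values under alternatives covers only the 29 members tested in the main fit. In it, 349 kept direction and side of the threshold, 5 lost the call (ITGAX and ITGB2) and 9 gained it (ITGA2, ITGB3 and LAMA5). ITGA2 also passed with library size alone (adjusted p = 0.044), no filter (0.026) and DESeq2 (0.038), and ITGB3 with library size alone (0.012) and no filter (0.041). The sign turned in 12, none of them called. With the size factors of DESeq2 and with DESeq2, ITGA6 went to −0.00028 and −0.00031, and with library size alone and no filter LAMA4 went to 0.013 and 0.0015. With 1 library left out, ITGA6 ranged from −0.021 to 0.039, LAMA4 from −0.030 to 0.013 and ITGA2B from −0.058 to 0.196. The cause was not tested. Levels per length moved with the longest transcript for most members. Genes of a few counts, such as ITGAL and ITGAM, could not be resolved at this depth.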
